A study of Rattus norvegicus with 13 samples.

Results

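Rat miR-103 and miR-107 (rno-miR-103 and rno-miR-107 on the array) are 2 of the 677 rat microRNAs on an Agilent 1-colour array, and they were taken as the array rows that carry those names. MicroRNAs (miRNAs) are small regulatory RNAs that repress the messenger RNAs with which they pair. They were followed in fat of 13 female Sprague Dawley rats. The HFD group held 6 daughters of males fed high-fat pellets (43% fat), and the Control group held 7 daughters of males fed standard chow (9% fat). All fathers were mated at 15 weeks of age with chow-fed females, all daughters were weaned onto chow at 3 weeks, and their fat was taken at 14 weeks, so no daughter in either group ate the high-fat diet. The submitters describe the HFD daughters as glucose intolerant, with no difference in weight or adiposity from the Control daughters, and the design asks whether the diet of a father alters miRNA levels in the fat of daughters. The sources used here name neither the fat depot nor the litters, so the tests cover the spread between animals and cannot allow for sisters.

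Both miRNAs lie in introns of pantothenate kinase genes, which encode the enzymes of the first step of coenzyme A synthesis. In obese mice both were raised in liver, and silencing them in mice improved insulin sensitivity, with the membrane protein caveolin-1 as a direct target in adipocytes. In cultured mouse preadipocytes miR-103 is known to rise as fat cells mature.

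The mature sequences are shown because the members are nearly the same molecule, which bears on every comparison between them. They come from RefSeq, assembly GRCr8, with the seed (bases 2 to 8 from the 5′ end, which pairs with target RNAs) in capitals, and both names were matched.
rno-miR-103-3p: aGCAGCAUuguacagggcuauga
rno-miR-107-3p: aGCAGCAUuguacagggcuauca
Both are 23 bases long, share the seed, and differ at 1 position, G22C, written with the base of miR-103 first and counted from the 5′ end. Of 693 rat mature miRNA names in the RefSeq table, 2 carry this seed, and they are these 2. The probe sequences were not used here, and how far a probe for one also bound the other was not tested.

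The 3 hairpins that yield them are shown with the mature miRNA in capitals, since they give the genes in which the miRNAs lie (GRCr8, RefSeq). Mir103a1 is at chr10:20748474-20748559 on the plus strand, inside Pank3. Mir103a2 is at chr3:138963227-138963312 on the plus strand, inside Pank2. Mir107 is at chr1:241750418-241750504 on the minus strand, inside Pank1. Each lies on the strand of its host gene.
Mir103a1: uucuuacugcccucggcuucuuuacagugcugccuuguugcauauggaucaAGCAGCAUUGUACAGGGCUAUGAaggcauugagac
Mir103a2: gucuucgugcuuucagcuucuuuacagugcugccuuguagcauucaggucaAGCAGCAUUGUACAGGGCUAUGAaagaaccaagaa
Mir107: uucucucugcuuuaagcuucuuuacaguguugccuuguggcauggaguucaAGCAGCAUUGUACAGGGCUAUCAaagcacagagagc
The mature strand takes bases 52 to 74 in all 3. Because Mir103a1 and Mir103a2 give the same mature sequence, the array level of miR-103 cannot be split between Pank3 and Pank2. The array also carried the opposite strands of the hairpins. miR-103-1*, miR-103-2* and miR-107* were each detected on 0 of 13 arrays, with 2, 0 and 1 of 260 spots well above background.

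Between 157 and 196 miRNAs were detected on HFD arrays and between 155 and 176 on Control arrays, and 0 spots were saturated. A level below is log2 of the background-subtracted intensity of a probe over the 75th percentile of the array, taken over 260 probes detected on all 13 arrays, and averaged over the probes of a miRNA. The precision is limited by the number of arrays. The arrays lay on 2 slides, with 4 HFD and 4 Control arrays on slide 1 and 2 HFD and 3 Control arrays on slide 2. Muscle miRNAs stood far apart on 3 arrays (HFD 629, Control 662 and Control 664), and results for miR-103 and miR-107 are given with and without them. All 5 miRNAs listed for adipocytes were tested, and their mean level ran from -0.37 to -0.0084 on HFD arrays and from -0.50 to -0.23 on Control arrays.

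Both miRNAs were measured well above background on every array. Each had 2 probes of 10 spots, and all 130 spots of each probe over the 13 arrays were well above background. Intensities of the miR-103 probes ran from 1234 to 1834 for A_26_P00001304 and from 798 to 1227 for A_26_P00001305. Those of the miR-107 probes ran from 1603 to 2324 for A_26_P00001308 and from 830 to 1286 for A_26_P00001309, over local backgrounds of 54 to 67.5. The spots of a probe on 1 array differed by a median coefficient of variation of 2.90% to 5.75%. Between arrays the levels varied by a coefficient of variation of 14.9% for miR-103 and 11.3% for miR-107 on a linear scale over the 13 arrays. That spread holds labelling, hybridisation and scaling as well as the animals, and these cannot be told apart with 1 array per animal.

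Levels of miR-103 in fat of HFD daughters were spread to both sides of those in Control daughters. In HFD daughters the log2 level was -0.31 (animal 624), -0.37 (620), -0.57 (619), -0.66 (660), -0.88 (663) and -0.97 (629), with a median of -0.61. In Control daughters it was -0.54 (631), -0.60 (656), -0.63 (622), -0.63 (627), -0.65 (664), -0.90 (662) and -0.996 (658), with a median of -0.63. The groups overlapped: HFD 624 and 620 lay above every Control array, and HFD 629 and 663 lay among the lowest Control arrays. The means were -0.63 ± 0.27 in HFD daughters (SD, n = 6) and -0.71 ± 0.17 in Control daughters (SD, n = 7).

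miR-107 ranked the animals in nearly the same way. In HFD daughters its log2 level was -0.10 (624), -0.28 (620), -0.41 (619), -0.45 (660), -0.66 (663) and -0.66 (629), with a median of -0.43. In Control daughters it was -0.35 (622), -0.39 (631), -0.42 (627), -0.44 (664), -0.46 (656), -0.53 (662) and -0.65 (658), with a median of -0.44. HFD 624 and 620 again lay above every Control array, while HFD 663 and 629 lay just below the lowest of them, Control 658. The means were -0.43 ± 0.22 in HFD daughters (SD, n = 6) and -0.46 ± 0.10 in Control daughters (SD, n = 7).

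**Figure D1:**
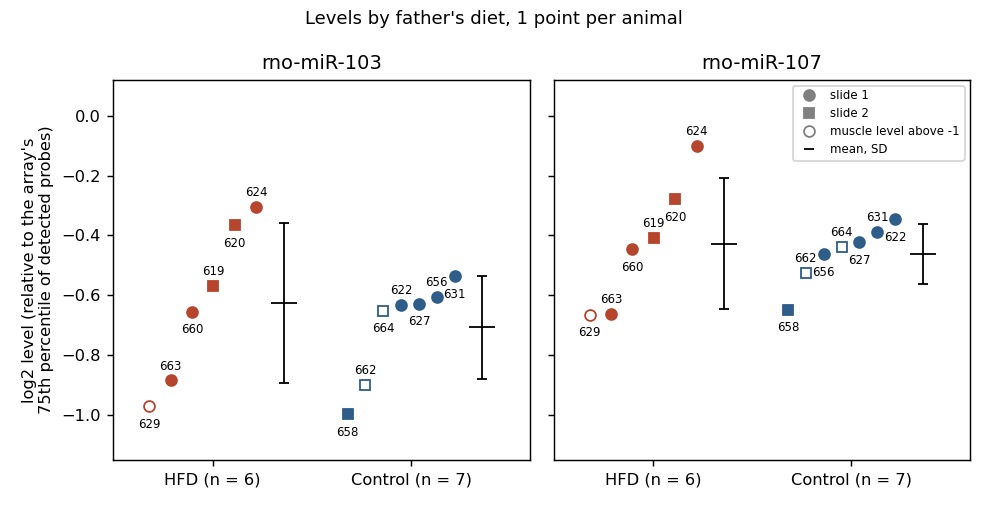
Log2 level of miR-103 and miR-107 in fat of HFD (n = 6) and Control (n = 7) daughters, with 1 point per animal labelled by its number, circles for slide 1, squares for slide 2, open symbols for the 3 muscle-rich arrays, and the mean with SD as bars. HFD arrays 624 and 620 are the highest for both miRNAs, and the groups overlap.

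Neither miRNA passed the test between the groups. The difference HFD minus Control was 0.082 ± 0.12 on the log2 scale (SE) for miR-103, or 1.06-fold with a 95% interval of 0.888 to 1.26 (limma, adjusted p = 0.977). For miR-107 it was 0.034 ± 0.089 (SE), or 1.02-fold with an interval of 0.896 to 1.17 (limma, adjusted p = 0.983). In each case 4 of 6 HFD animals lay above the Control mean. Of the 176 miRNAs tested 0 were called, so percent called was 0%, and 2 had an unadjusted p under 0.05 (1.14%), neither of them miR-103 or miR-107. Larger absolute differences were found for 65 of the 176 tested miRNAs than for miR-103, and for 121 than for miR-107. These arrays do not exclude shifts inside these intervals. In bulk fat, fewer cells of a type and less of the miRNA per cell cannot be told apart.

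The groups overlapped in the unscaled signal too, but the order of the animals changed. The total gene signal, which the scanner software sums over the probes, averaged 1641 ± 190 for miR-103 in HFD daughters and 1533 ± 231 in Control daughters (SD, n = 6 and 7). For miR-107 it averaged 1928 ± 258 in HFD daughters and 1854 ± 218 in Control daughters. The ranges overlapped, at 1424 to 1931 in HFD and 1254 to 1830 in Control for miR-103, and at 1659 to 2278 in HFD and 1487 to 2083 in Control for miR-107. Scaled to the 75th percentile of miRNAs detected on all arrays, this signal gave a difference of 0.037 for miR-103 and one of -0.012 for miR-107, on the other side of 0. Unscaled, miR-107 was 2111 on HFD 629 and 1749 on HFD 620. By the log2 level HFD 629 was the lowest array for miR-107, and HFD 620 lay above every Control array.

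The probes for each miRNA moved together. The difference HFD minus Control was 0.071 with A_26_P00001304 and 0.093 with A_26_P00001305 for miR-103, and 0.020 with A_26_P00001308 and 0.049 with A_26_P00001309 for miR-107. Over the 13 arrays the log2 levels of the miR-103 probes correlated at r = 0.99 and those of the miR-107 probes at r = 0.95, as a description. Pairs of 1 probe for each miRNA correlated at r = 0.91 to 0.96. The highest of these, A_26_P00001304 with A_26_P00001308 at 0.957, exceeded the 0.948 between the miR-107 probes. None reached the r of the miR-103 probes. All these values share the scale factor of their array.

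**Figure D2:**
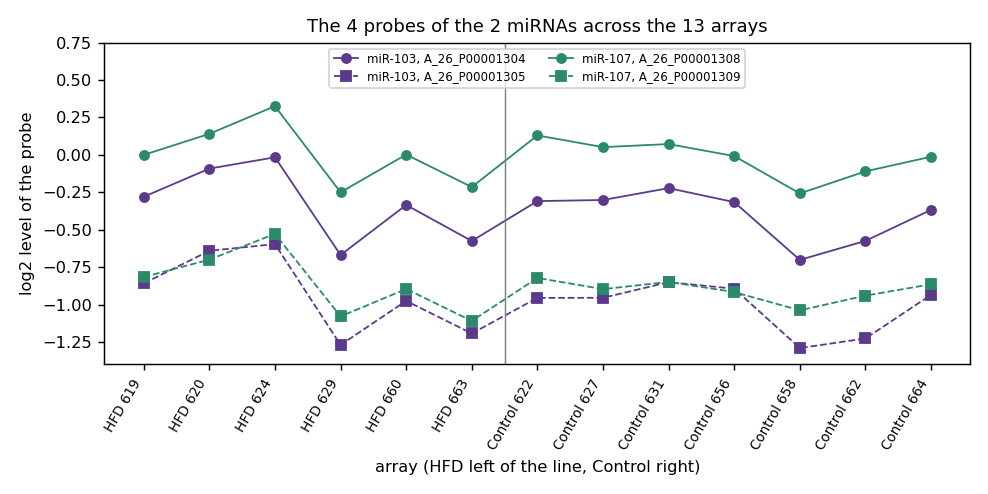
Log2 level of each of the 4 probes by array, HFD arrays left of Control arrays, with 1 line per probe. The lines of the miR-103 probes and of the miR-107 probes rise and fall on the same arrays, with HFD 624 and 620 high.

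The balance between the miRNAs was taken within each array, which removes the scale factor. Since probes differ in brightness, only its change between arrays can be read. The level of miR-103 minus that of miR-107 was -0.20 ± 0.072 in HFD daughters (SD, n = 6) and -0.25 ± 0.093 in Control daughters (SD, n = 7). It ran from -0.30 to -0.087 on HFD arrays and from -0.38 to -0.14 on Control arrays, and the group means differed by 0.047. That difference is smaller than the SD within either group, and it was not tested.

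With all 13 arrays kept, the relation to the father's diet took opposite signs on the slides. On slide 1 miR-103 averaged -0.70 ± 0.30 in HFD daughters and -0.60 ± 0.044 in Control daughters (SD, n = 4 each), a difference of -0.10 (limma within slide 1, adjusted p = 0.869). On slide 2 it averaged -0.47 ± 0.14 in HFD daughters (n = 2) and -0.85 ± 0.18 in Control daughters (n = 3), a difference of 0.38 (limma within slide 2, adjusted p = 0.445). For miR-107 the slide 1 means were -0.47 ± 0.27 in HFD and -0.40 ± 0.050 in Control daughters, a difference of -0.064 (limma, adjusted p = 0.869), and the slide 2 means were -0.34 ± 0.091 in HFD and -0.54 ± 0.11 in Control daughters, a difference of 0.19 (limma, adjusted p = 0.479). On slide 1 the HFD animals lay on both sides of the Control animals, with 1 of 4 above all of them and 3 below all of them for miR-103, and 1 above and 2 below for miR-107. On slide 2 both HFD animals lay above all 3 Control animals for both miRNAs by the scaled level, but not by the unscaled signal. The total gene signal there was 1454 and 1608 in HFD and 1283, 1477 and 1562 in Control daughters for miR-103. For miR-107 it was 1659 and 1749 in HFD and 1658, 1946 and 1853 in Control daughters. Since the miRNAs correlated at r = 0.94 over the 13 arrays, these are not separate results. How many of the 176 tested miRNAs place the groups apart on a slide in this way was not counted.

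The slide difference itself did not pass the adjusted test. The slide 2 difference exceeded the slide 1 difference by 0.48 ± 0.22 for miR-103 (SE, limma interaction, adjusted p = 0.252) and by 0.26 ± 0.18 for miR-107 (SE, limma interaction, adjusted p = 0.463). In that fit 1 of the 176 tested miRNAs was called (0.568%), and 34 had an unadjusted p under 0.05 (19.3%). miR-103 was among those 34, at rank 33 by p, and miR-107 ranked 72. The called miRNA was the red blood cell miR-451, at -1.99 (limma interaction, adjusted p = 0.0281), and the red cell miR-144 (-2.30) and miR-144* (-1.37) ranked next. The mean level of these 3 red cell miRNAs, which make up the whole list, ran from -1.88 to -0.66 in HFD and from -2.55 to -2.04 in Control daughters on slide 1, and from -1.80 to -1.76 in HFD and from -1.21 to -1.10 in Control daughters on slide 2. Its HFD minus Control difference thus changed sign between slides, in the direction opposite to that of miR-103 and miR-107. The groups did not overlap on either slide. These 3 miRNAs had the lowest p of that fit on the same arrays, so this is not a separate result. How many tested miRNAs do the same was not counted, and slide 2 holds 2 HFD arrays. The part of the red cell miRNAs in the slide difference of miR-103 and miR-107 was not tested. Of the 3 Control arrays on slide 2, 662 and 664 were rich in muscle miRNAs. With the muscle level as a covariate the slide difference was 0.33 for miR-103 and 0.15 for miR-107 (limma, adjusted p = 0.586 and 0.772). Without the 3 muscle-rich arrays, which leaves 1 Control array on slide 2 assumed to vary like the others, it was 0.54 for miR-103 (limma, adjusted p = 0.180) and 0.30 for miR-107.

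The muscle content of the arrays was read from the muscle-specific miRNAs. Of 5 on the list, miR-1, miR-133b and miR-499 were tested and their mean log2 level is called the muscle level, while miR-133a was detected on 5 arrays and miR-206 on 3. On HFD arrays it was 0.50 (629), -2.30 (619), -4.35 (624), -4.50 (663), -4.57 (620) and -5.06 (660). On Control arrays it was 0.46 (662), -0.13 (664), -2.94 (658), -4.51 (656), -4.85 (622), -4.85 (631) and -4.93 (627). The arrays thus fall into 3 with a high level and 10 with a lower one, and both groups are found in each set.

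The muscle-rich arrays did not leave the range of the others for miR-103. It had levels of -0.97 on HFD 629, -0.90 on Control 662 and -0.65 on Control 664, against -0.996 to -0.31 with a median of -0.62 on the other 10 arrays. miR-107 had levels of -0.66 on HFD 629, -0.53 on Control 662 and -0.44 on Control 664, against -0.66 to -0.10 with a median of -0.42 on the other 10, and HFD 629 was the lowest of all 13, just below HFD 663. For both miRNAs all 3 muscle-rich arrays lay below the median of the other 10. These levels are divided by the 75th percentile of the array, which was 2540 on HFD 629, 2136 on Control 662 and 1923 on Control 664. Unscaled, the total gene signal on these arrays was 1676, 1477 and 1562 for miR-103. For miR-107 it was 2111, 1946 and 1853. The part of the scale factor in the low levels was not tested. The balance of miR-103 over miR-107 averaged -0.30 on these 3 arrays and -0.20 on the other 10. Without the 3 arrays the difference HFD minus Control was 0.12 for miR-103 and 0.074 for miR-107.

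**Figure D3:**
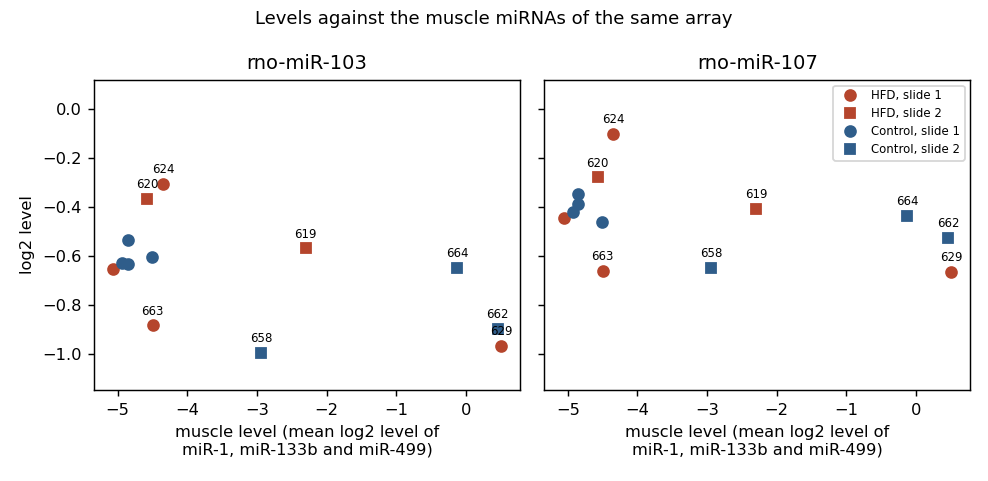
Log2 level of miR-103 and miR-107 against the muscle level of the same array, with red for HFD, blue for Control, circles for slide 1 and squares for slide 2. The 3 arrays at the right have muscle levels of -0.13 to 0.50. Their scaled miR-103 and miR-107 levels all lie below the medians of the other 10 arrays (-0.62 and -0.42). HFD 629 has the lowest scaled level of all 13 for miR-107. Animals 622, 627, 631, 656 and 660 carry no number.

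No relation to the muscle level passed the test. Over the 11 arrays with a muscle level of at most 0, the slope was -0.019 ± 0.040 log2 units of miR-103 per log2 unit of muscle level (SE, limma with a group term, adjusted p = 0.960) and -0.014 ± 0.033 for miR-107 (SE, adjusted p = 0.960). In that fit 1 of 173 tested miRNAs was called (0.578%), and 20 had an unadjusted p under 0.05 (11.6%), with neither member among them. These 11 include Control 664, whose miR-1 and miR-133b are near those of the other muscle-rich arrays, and without it the slopes were -0.072 for miR-103 and -0.050 for miR-107 (limma, adjusted p = 0.594 and 0.687). Within slide 1 the slopes turned positive, at 0.18 and 0.13 (limma, adjusted p = 0.923 for both). Over the 10 arrays with a muscle level under -1, the correlation with the muscle level was r = -0.27 for miR-103 (permutation p = 0.483, adjusted 0.777) with rho = 0.10 (p = 0.783), and r = -0.24 for miR-107 (permutation p = 0.499, adjusted 0.790) with rho = -0.10 (p = 0.786). Leaving out HFD 619 and Control 658, the arrays farthest from the median, turned r to 0.31 and 0.24, so its sign rests on those 2 arrays. Over these 10 arrays 16 of 172 miRNAs had an unadjusted p under 0.05 (9.3%) and 0 passed after adjustment. On slide 1 alone r was 0.24 for miR-103 (n = 7, exact permutation p = 0.612) and 0.19 for miR-107 (n = 7, exact permutation p = 0.687). There rho was 0.39 for miR-103 (exact permutation p = 0.396) and 0.071 for miR-107 (exact permutation p = 0.906). Leaving out HFD 624 and HFD 663 turned r negative for miR-107 but not for miR-103. In that set 3 of 172 miRNAs had an unadjusted p under 0.05 for r (1.74%).

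Among animals, miR-103 and miR-107 each had the other as its closest companion. By the Pearson correlation of log2 levels over the 13 arrays, which share scale factors, slides and muscle content, they correlated at r = 0.94, and at r = 0.95 over the 10 arrays low in muscle miRNAs. The next most like miR-103 among 175 other tested miRNAs were let-7f at 0.90, miR-425 at 0.90, miR-195 at 0.86 and miR-497 at 0.85. For miR-107 they were let-7f at 0.88, miR-425 at 0.87, miR-365 at 0.83 and miR-22* at 0.82. let-7f belongs to the let-7 family, known for restraining growth genes, and miR-195 and miR-497 come from 1 cluster. The most opposed to miR-103 were miR-106b at -0.74, miR-101a at -0.73 and miR-30e at -0.72, and the most opposed to miR-107 were miR-106b at -0.71, miR-301a at -0.69 and miR-27b at -0.68. The median r over the 175 was 0.059 for miR-103 and 0.12 for miR-107.

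**Figure D4:**
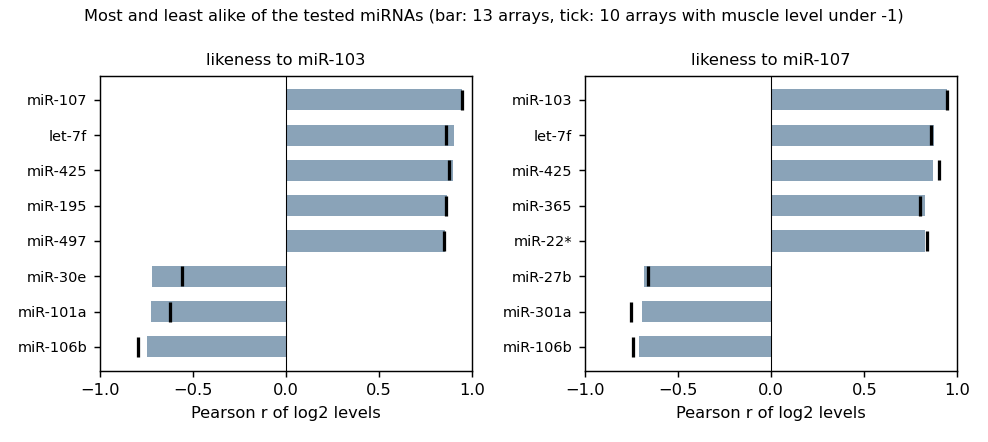
Pearson correlation over the 13 arrays of each named miRNA with miR-103 and with miR-107 (bars), and over the 10 arrays with a muscle level under -1 (ticks). The other member stands highest for each at 0.94, and miR-106b lies lowest at -0.74 and -0.71.

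A wider group of relatives, named for miR-15 and miR-107, shares with both miRNAs a 6-base stretch near the 5′ end, shown in capitals because it is what the group has in common. Its members are known for restraining cell cycle genes.
rno-miR-15b-5p: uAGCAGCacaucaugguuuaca
rno-miR-16-5p: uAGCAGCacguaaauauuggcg
rno-miR-195-5p: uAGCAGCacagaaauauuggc
rno-miR-322-5p: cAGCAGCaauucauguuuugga
rno-miR-497-5p: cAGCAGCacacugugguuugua
rno-miR-503-5p: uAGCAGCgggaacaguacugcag
The stretch AGCAGC lies within bases 1 to 8 of 8 of the 693 names (1.15%), which are these 6 with miR-103 and miR-107. In miR-103 and miR-107 it starts at base 1, and in the other 6 it starts at base 2.

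None of the 6 passed the test between HFD and Control daughters, although all 6 differences were above 0. Their median was 0.061, beside 0.0028 over all 176 tested miRNAs, of which 91 were above 0 and 85 below. With the percentile over all probes or with the total gene signal, 4 of the 6 were above 0. miR-322 averaged -0.80 ± 0.22 in HFD daughters (SD, n = 6) and -0.96 ± 0.094 in Control daughters (SD, n = 7), a difference of 0.16 (limma, adjusted p = 0.965). The differences were 0.088 for miR-503, 0.075 for miR-15b, 0.047 for miR-16, 0.014 for miR-195 and 0.011 for miR-497. The 6 varied between animals in different ways: miR-195, miR-497 and miR-322 correlated with miR-103 at 0.86, 0.85 and 0.68, while miR-16, miR-15b and miR-503 did so at 0.17, 0.16 and -0.079.

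Other miRNAs listed for insulin signalling and obesity did not pass the test either. Of 17 tested, 0 were called, 7 lay above 0 and 10 below, with a median of -0.027 (4 to 8 above 0 under the other scalings and summaries tried). miR-221, which is known in mice to target an adiponectin receptor, averaged -3.82 ± 0.13 in HFD daughters (SD, n = 6) and -3.30 ± 0.70 in Control daughters (SD, n = 7), a difference of -0.52 (limma, adjusted p = 0.965). On Control 658 miR-221 was -1.75, with the nearest Control array at -3.34, so the size of its difference rests in part on that array. Its sister miR-222 lay at the floor of the scale on all 6 HFD arrays and on 2 Control arrays. miR-29a, known for lowering insulin signalling in cultured mouse adipocytes, had a difference of -0.097, and the endothelial miR-126 one of 0.082. Of 16 tested miRNAs listed for adipocyte differentiation, 0 were called, 8 lay above 0 and 8 below, with a median of -0.012 (6 to 9 above 0 under the other settings). The cluster mates miR-193 and miR-365, known for brown fat, had differences of 0.19 and 0.14, miR-378 one of 0.16, and miR-27b, known in mice to restrain adipocyte differentiation, one of -0.19.

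**Figure D5:**
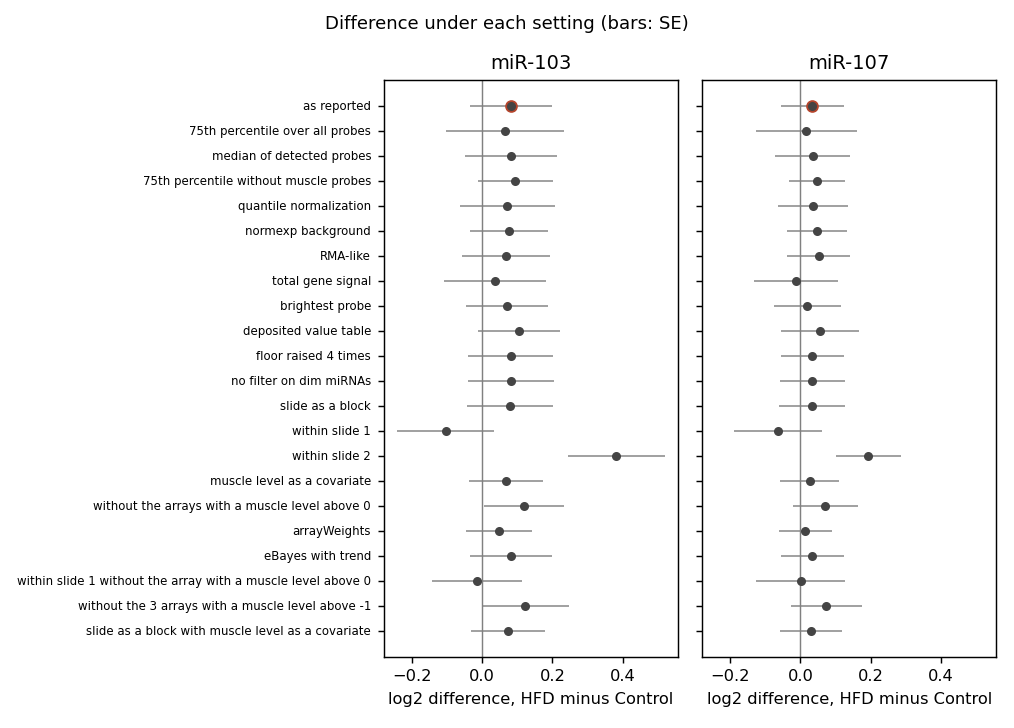
Difference HFD minus Control on the log2 scale for miR-103 and miR-107 under each way of processing and each choice of arrays, with bars of 1 SE from limma. The reported values of 0.082 and 0.034 are the larger red points. Within slide 1 the points lie at -0.10 and -0.064, and within slide 2 at 0.38 and 0.19.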

How the data were processed

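Per the file headers, the deposited spot values are background-subtracted intensity made by the scanner software Feature Extraction (10.7.3.1; grid build rn4), not normalized between arrays. The deposited value table holds log2 of the total gene signal, blank where a miRNA was not detected; 26 of its 2569 values differed by more than 2e-04. Medians of its columns lay between 6.95 for HFD 663 and 7.77 for Control 662, and scale and lack of centring were found from the scanner values. RMA and Partek are named in the submitters' processing notes without a role. Per the labels, 100 ng of total RNA was labelled with Cy3.

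Control spots were left out, giving 13540 spots of 1644 probes per array. Outlier-flagged spots (4840 over the 13 arrays) were left out of the intensities but counted for detection. Unflagged spots were averaged per probe, divided by the 75th percentile over 260 probes, floored at 0.0197 (log2 -5.67), taken to log2 and averaged per miRNA. Detection on an array required that, for some probe, a share of 0.5 or more of the spots was well above background, and a miRNA was tested where detected on at least 6 arrays (176 of 677). Groups, slopes and slides were fitted over all tested miRNAs with limma 3.58.1 in R 4.3.3 (two-sided, Benjamini-Hochberg, threshold 0.05). The fits were tested on simulated data. Correlations used two-sided permutations (100000, or exact with fewer than 10 arrays), with 4 relations computed over all tested miRNAs. The normexp alternative used the median signal of each spot, offset 50. Named miRNAs were the 5 most like and 3 most opposed to each member by correlation, and up to 4 per list by p; miR-195 and miR-497 among the differences were added to complete the group. The members and lists were chosen with earlier results of these data known.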

Additional observations from a re-analysis of the deposited data

Results flagged for a closer look

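Neither miR-103 nor miR-107 had an animal set apart within its group by Dixon's gap test. Among 51 groups of arrays over 26 named or marker miRNAs, 5 had one, and chance sets one apart in about 1 in 20 groups. Among the relatives of miR-103 and miR-107, miR-322 was -1.21 on HFD 629, with the nearest HFD array at -0.81, and miR-15b was -0.75 on Control 664, with the nearest Control array at -1.18. miR-221 was -1.75 on Control 658, with the nearest Control array at -3.34. miR-222 was -3.87 on Control 658, with the nearest at -5.48. miR-193 was -0.73 on HFD 620, with the nearest HFD array at -0.49.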

How the results depend on the processing

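No paired analysis was possible because the number in each title is that of 1 animal and none is shared between groups. No setting brought miR-103 or miR-107 past the threshold. The count of miRNAs called between HFD and Control was 0 under every alternative, with 1 to 17 at an unadjusted p under 0.05. Over 18 other scalings, summaries and choices of arrays the difference of miR-103 ran from -0.10 to 0.38 (limma, adjusted p from 0.445 to 1) and that of miR-107 from -0.064 to 0.19 (0.479 to 1). Below 0 were both within slide 1 (-0.10 and -0.064) and miR-107 by total gene signal (-0.012). Within slide 1 without HFD 629, chosen after seeing the data, miR-103 was -0.015 and miR-107 was 0.0014. Leaving out 1 array gave 0.018 (HFD 624) to 0.15 (HFD 629) for miR-103 and -0.031 (HFD 624) to 0.082 (HFD 629) for miR-107. The slopes turned within slide 1, to 0.18 and 0.13. The slide difference kept its direction throughout, and leaving out 1 array gave 0.38 (HFD 620) to 0.62 (HFD 624) for miR-103 and 0.19 (HFD 629) to 0.38 (HFD 624) for miR-107. Between all 176 miRNAs, 69 lay above 0 by total gene signal and 113 by the deposited table. The cause of these shifts was not tested. The muscle level cutoff of -1 was chosen after seeing the data.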

Other observations

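Arrays on which more miRNAs were detected tended to have lower scaled levels of both miRNAs, a relation chosen after the values were seen. The level is divided by the 75th percentile of the array. That was 2540 on HFD 629 (189 miRNAs detected), 2056 on HFD 663 (196) and 1546 on Control 627 (155). Unscaled, the total gene signal of miR-107 on these arrays was 2111, 1703 and 1487. The part of the scale factor in the relation was not tested. Over the 13 arrays, r with the number of detected miRNAs was -0.56 for miR-103 (permutation p = 0.0445, adjusted 0.313) with rho = -0.55 (p = 0.0534), and -0.65 for miR-107 (permutation p = 0.0165, adjusted 0.203) with rho = -0.74 (p = 0.00509, adjusted 0.0640). Without HFD 663 and HFD 629, which detected 196 and 189 miRNAs, r was -0.29 for miR-103 and -0.35 for miR-107, and rho was -0.36 and -0.58. On slide 1 r was -0.66 for miR-103 (n = 8, exact permutation p = 0.0674, adjusted 0.369) and -0.71 for miR-107 (n = 8, exact permutation p = 0.0429, adjusted 0.266), and without HFD 663 and Control 627 it was -0.67 and -0.75. Its rho on slide 1 was weaker for miR-103, at -0.45 (exact permutation p = 0.267, adjusted 0.592). For miR-107 rho was -0.76 (exact permutation p = 0.0368, adjusted 0.292). Without HFD 663 and Control 627 rho was -0.37 for miR-103 and -0.89 for miR-107. On slide 1, 30 of 175 miRNAs had an unadjusted p under 0.05 for r (17.1%). Over the 13 arrays 0 of the 176 tested miRNAs passed after adjustment, and 26 (14.8%) had an unadjusted p under 0.05. No correlation was computed over the 5 arrays of slide 2.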
